A study of Mus musculus with 6 samples.

Results

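Epcam and the matriptase protease system of the epithelial cell surface were followed through 6 genes, Epcam, St14, Spint1, Spint2, Prss8 and Prss22. They were taken as every probe set annotated to one of these symbols alone, which gave 8 of the 45037 probe sets tested. Epcam and Spint2 had 2 probe sets each and the other genes 1 each.

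RNA was measured on 6 arrays of 344SQ cells, a mass population grown from a subcutaneous tumor of mouse #344, which carried the alleles p53R172H∆g/+ and K-rasLA1/+. In 3 cultures (miR-200 A, B and C) the cells carried a lentiviral vector for the miR-200b-200a-429 cluster, and in 3 (control A, B and C) a control vector. Both kinds of cell shared the genotype, the lentiviral transduction and the selection of GFP-positive pools in puromycin. The labels name triplicate cultures and no separate transductions, so p-values measure the spread between cultures, and a difference between the pools cannot be told apart from an effect of the microRNAs.

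Epcam is a homophilic adhesion protein of epithelial membranes and binds claudin-7. Matriptase, the product of St14, is a type II transmembrane serine protease that activates growth factors and receptors at the cell surface and, in human intestinal cells, cleaves Epcam. Prostasin (Prss8) is a membrane-anchored protease that acts with matriptase in one activation cascade, and Prss22 encodes tryptase epsilon, a protease of airway epithelium. The Kunitz-type inhibitors HAI-1 (Spint1) and HAI-2 (Spint2) hold matriptase and prostasin in check, and loss of either EPCAM or SPINT2 causes congenital tufting enteropathy in humans.

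The transduced microRNAs are shown because their seeds, bases 2 to 8 in capitals, define what the cells were made to express (RefSeq, GRCm38.p6, chromosome 4, minus strand):
mmu-miR-200a-3p: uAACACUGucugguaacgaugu
mmu-miR-200b-3p: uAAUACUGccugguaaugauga
mmu-miR-429-3p: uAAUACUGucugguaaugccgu
The last pair share a seed, and the seed of miR-200a differs from it. Levels of the microRNAs were not analysed here. The best known targets of this family, Zeb1 and Zeb2, are repressors that bind E-boxes of the sequence CACCTG.

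Promoter windows from 250 bases before to 50 bases after a start site (RefSeq, GRCm38.p6) were used for 3 of the 6 genes, Epcam, Spint1 and Spint2. Both strands were searched for CACCTG, which reads CAGGTG on the other strand. The windows of Epcam (chr17:87635729-87636028, plus strand) and Spint2 (chr7:29281928-29282227, minus strand) are printed because they hold this E-box, in capitals:
Epcam: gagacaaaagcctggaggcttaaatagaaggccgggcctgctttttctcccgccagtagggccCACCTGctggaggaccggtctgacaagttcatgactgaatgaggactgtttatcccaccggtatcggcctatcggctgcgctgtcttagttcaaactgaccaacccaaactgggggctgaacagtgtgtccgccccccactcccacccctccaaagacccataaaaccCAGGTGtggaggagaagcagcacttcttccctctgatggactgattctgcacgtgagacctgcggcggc
Spint2: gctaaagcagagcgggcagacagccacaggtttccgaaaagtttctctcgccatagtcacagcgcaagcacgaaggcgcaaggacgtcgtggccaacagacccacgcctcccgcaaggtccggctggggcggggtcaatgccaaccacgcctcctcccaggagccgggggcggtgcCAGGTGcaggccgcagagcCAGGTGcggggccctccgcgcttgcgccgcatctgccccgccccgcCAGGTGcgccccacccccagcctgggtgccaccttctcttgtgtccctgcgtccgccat
The Epcam window held 2 matches, which began 187 and 19 bases before the start site. The Spint2 window held 3, which began 74, 55 and 9 bases before the start site used for that window. The annotated span of Spint2 begins further upstream, at chr7:29282059 on the minus strand, so these 3 matches lie inside the gene. No match lay in the Spint1 window (chr2:119237110-119237409, plus strand). Of 32851 such windows of mouse genes, 20.2% held at least 1 match, 2.88% at least 2 and 0.365% at least 3. A match of letters is a description of the window and shows no binding.

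Values are log2 signals after quantile normalization, and differences subtract the control mean from the miR-200 mean, with the standard error of a limma fit over all probe sets. Adjusted p-values are Benjamini-Hochberg values over the 45037 probe sets, with a threshold of 0.05. The brightest of the array's own control probe sets for bacterial trp, 5.28, served as a gauge of background. Signals of different probe sets are not comparable as levels, so only differences are set against each other. The precision is limited by 3 arrays per group.

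None of the 8 probe sets passed the threshold, against 0.744% of all probe sets in either direction (0.258% higher and 0.486% lower), and 21.3% of all probe sets had groups that did not overlap. The 3 with groups that did not overlap, both of Epcam and the one of St14, were higher in the miR-200 cells, a separation that 11.6% of all probe sets showed in this direction and 9.76% in the other. The same 3 had an unadjusted limma p under 0.05, as did 7.18% of all probe sets in this direction and 6.93% in the other. The median difference of the 8 was 0.58, against 0.03 for all probe sets. The largest differences were those of 1416579_a_at of Epcam and of St14, followed by Prss22, whose cultures were widely spread.

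Epcam (gene 17075, chr17:87635979-87651127, GRCm38.p6) was much higher in the miR-200 cells by one of its probe sets. Probe set 1416579_a_at read 12.24, 11.49 and 11.38 in miR-200 A, B and C, against 5.62, 7.94 and 5.40 in control A, B and C. All miR-200 values lay far above all control values, and within the controls B stood 2.43 above the mean of A and C, which were close to the background gauge. The difference was 5.38 ± 0.74 (log2 ± SE, 95% interval 3.55 to 7.22), or 41.7-fold, with an adjusted p = 0.0546 in limma that just missed the threshold. Among 45037 probe sets 3 had a higher difference, since this one ranked 4.

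The call for this Epcam probe set depended on the setting. It passed without control B (6.19, adjusted p = 0.0236), without both control B and miR-200 A (5.94, adjusted p = 0.0473), with the dimmest 40% of probe sets left out (adjusted p = 0.0142), with a variance trend (adjusted p = 0.0169) and with array weights (5.67, adjusted p = 0.0127). These were 5 of 13 alternatives. It missed in all others, among them the fits without each array other than control B (adjusted limma p up to 0.209). The difference lay between 4.91 and 6.19 (log2) in all 13 alternatives, or 30.15-fold to 72.81-fold, with the highest value without control B and the lowest without control C. The fold is therefore imprecise, since it rests on 3 control values of which A and C lay near the background gauge.

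The other Epcam probe set, 1447899_x_at, disagreed in size. It read 9.93, 9.67 and 9.51 in miR-200 A, B and C, against 9.13, 9.37 and 9.35 in control A, B and C. The groups did not overlap here either, but the difference was 0.42 ± 0.16 (95% interval 0.01 to 0.83, adjusted p = 0.344), a 1.34-fold higher mean. The suffix x marks a probe set whose probes may also bind other transcripts, and it was built on an expressed sequence tag, whereas the first was built on a cDNA clone. On the same arrays, the shift of 1416579_a_at between groups exceeded that of 1447899_x_at by 4.96 ± 0.80 (SE, n = 3 per group). An exact permutation test over the 6 arrays gave a two-sided p = 0.1, the smallest that 3 against 3 allows. The probe sets thus agree in direction and differ widely in size.

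**Figure D1:**
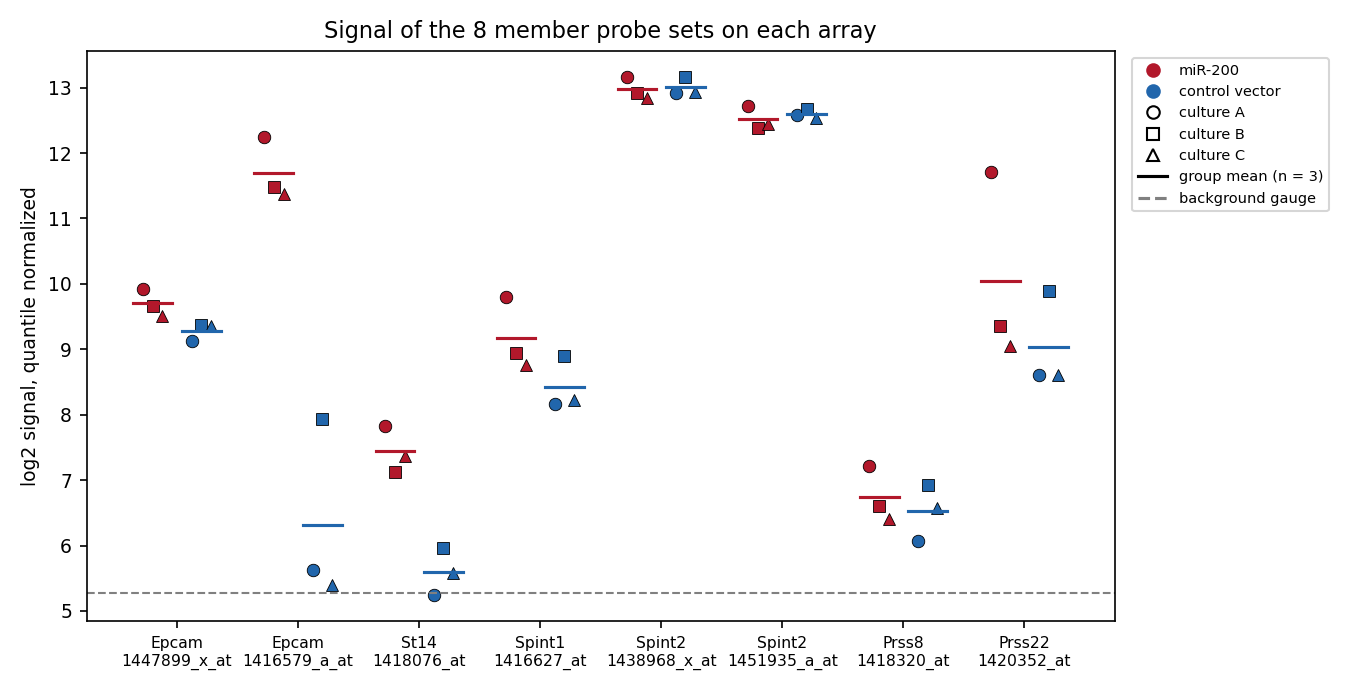
Log2 signal (y axis) of the 8 member probe sets (x axis) on each array, miR-200 cultures left in red and control vector cultures right in blue, with marker shapes for cultures A, B and C, group means as lines and the background gauge of 5.28 dashed. The groups are apart for both Epcam probe sets and for St14, and the Spint2 points of both groups lie on each other.

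St14, the gene of matriptase (gene 19143, chr9:31088590-31131811), was higher in all miR-200 cultures. Its probe set 1418076_at read 7.83, 7.12 and 7.36 in miR-200 A, B and C, against 5.24, 5.96 and 5.57 in control A, B and C. The lowest miR-200 value lay above the highest control value, and the control values were close to the gauge, with control A just under it. The difference was 1.85 ± 0.27 (95% interval 1.16 to 2.53), 3.60-fold, with an adjusted p = 0.0673 in limma. Of all probe sets, 0.711% had a higher difference. The fold is less certain than its error says because the control mean, 5.59, lies so near background. St14 passed with the dimmest 40% of probe sets left out (adjusted p = 0.0193), with a variance trend (adjusted p = 0.0142) and with array weights (adjusted p = 0.0243). These were 3 of 13 alternatives. It missed in all others, with an adjusted limma p from 0.101 to 0.238 without any 1 array. Its difference lay between 1.66 and 2.03 in all 13.

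Spint1, which encodes HAI-1, the membrane inhibitor that binds matriptase (gene 20732, chr2:119237360-119249535), had a smaller difference in the same direction. Its probe set 1416627_at read 9.80, 8.95 and 8.76 in miR-200 A, B and C, against 8.17, 8.89 and 8.23 in control A, B and C. The groups overlapped, since control B lay above miR-200 C. The difference was 0.74 ± 0.35 (95% interval -0.14 to 1.62, adjusted p = 0.422), and no alternative brought it past the threshold.

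Spint2, which encodes HAI-2 (gene 20733, chr7:29256330-29282059), was bright in both kinds of cell and differed little. Probe set 1438968_x_at read 13.17, 12.92 and 12.85 in miR-200 A, B and C, against 12.92, 13.17 and 12.93 in control A, B and C. Probe set 1451935_a_at read 12.72, 12.38 and 12.44 in miR-200 A, B and C, against 12.58, 12.67 and 12.53 in control A, B and C. Here the probe sets of the gene gave like values, both with overlapping groups. The x suffix of 1438968_x_at carries the same limit as for Epcam, since its probes may also bind other transcripts. Their differences were -0.03 ± 0.15 (95% interval -0.41 to 0.35, adjusted p = 0.960) and -0.08 ± 0.14 (95% interval -0.44 to 0.28, adjusted p = 0.851).

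Set against its inhibitors on the same arrays, the matriptase signal shifted more between groups. The shift of St14 exceeded that of Spint1 by 1.10 ± 0.20 (SE, n = 3 per group), and that of the Spint2 probe sets by 1.87 ± 0.20 and 1.93 ± 0.22. In each of these comparisons the groups did not overlap. Each gave an exact two-sided permutation p = 0.1, the smallest possible here, also after adjustment over the 4 within-array comparisons computed. They were chosen after the values were seen. The Spint2 probe sets lay at brightness percentiles 99.05 and 98.39 of all probe sets. Whether signals this bright still change in proportion to the RNA was not tested, so their small shifts may understate a change.

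**Figure D2:**
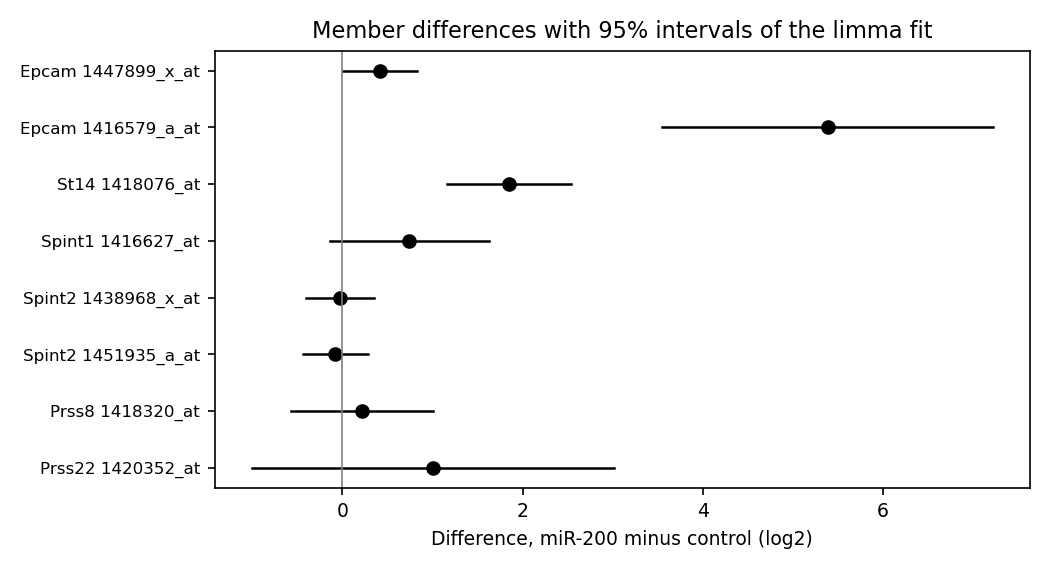
Difference between miR-200 and control cells on the log2 scale (x axis) for each member probe set (y axis), as points with 95% intervals of the limma fit over 3 arrays per group. The intervals of 1416579_a_at of Epcam (3.55 to 7.22) and of St14 (1.16 to 2.53) lie well above 0, and those of Spint2 are narrow around it.

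Prss8, the gene of prostasin (gene 76560, chr7:127925717-127930149), showed no separation. Its probe set 1418320_at read 7.22, 6.60 and 6.41 in miR-200 A, B and C, against 6.07, 6.93 and 6.58 in control A, B and C. The difference of 0.22 ± 0.32 (95% interval -0.57 to 1.003, adjusted p = 0.808) was smaller than the spread within either group, which was 0.42 in the miR-200 cells and 0.43 in the control cells (SD, n = 3 each). A difference of up to 1.003 on the log2 scale stays within that interval.

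Prss22, the gene of tryptase epsilon (gene 70835, chr17:23993534-24000722), varied more between cultures of one kind than between kinds. Its probe set 1420352_at read 11.71, 9.35 and 9.04 in miR-200 A, B and C, against 8.60, 9.89 and 8.61 in control A, B and C. Control B lay above miR-200 B and above miR-200 C as well. The difference was 1.003 ± 0.81 (95% interval -1.01 to 3.01, adjusted p = 0.644). It was 0.17 without miR-200 A, 1.43 without control B and 0.59 without both, so single cultures set its size. Tryptase genes resemble each other in sequence, and cross-binding of their transcripts to this probe set was not tested.

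The arrays miR-200 A and control B departed from the rest of their groups over the whole array, with deviations from the group means that correlated at 0.71. For all 8 member probe sets, miR-200 A was the highest miR-200 array and control B the highest control array, a pattern that 21.1% of all probe sets showed. Since probe sets share the arrays, this count is a description. The excess of array miR-200 A over the mean of B and C ranged from 0.28 for Spint2 to 2.51 for Prss22, with 0.81 for 1416579_a_at of Epcam and 0.59 for St14. The excess of control B over the mean of control A and C ranged from 0.12 for Spint2 to 2.43 for Epcam, with 0.56 for St14 and 1.28 for Prss22. St14 and Prss8 thus deviated in both arrays by like amounts, whereas 1416579_a_at of Epcam deviated mostly in control B and Prss22 mostly in miR-200 A.

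The difference between kinds of cell was therefore read within each pair of like arrays as well. For St14 it was 1.87 between miR-200 A and control B, and 1.83 between the other miR-200 and control arrays. For 1416579_a_at of Epcam the same values were 4.30 and 5.92, for Spint1 0.91 and 0.66, and for Prss8 0.29 and 0.18. St14 kept its difference in either pair, and Epcam was higher in the miR-200 cells in both. For Prss22 the values were 1.82 and 0.59. The first value of each gene rests on a single array per group and the second on 2 per group, and no error was computed. The grouping of like arrays was taken from the deviations of these same arrays, so these values are a description.

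**Figure D3:**
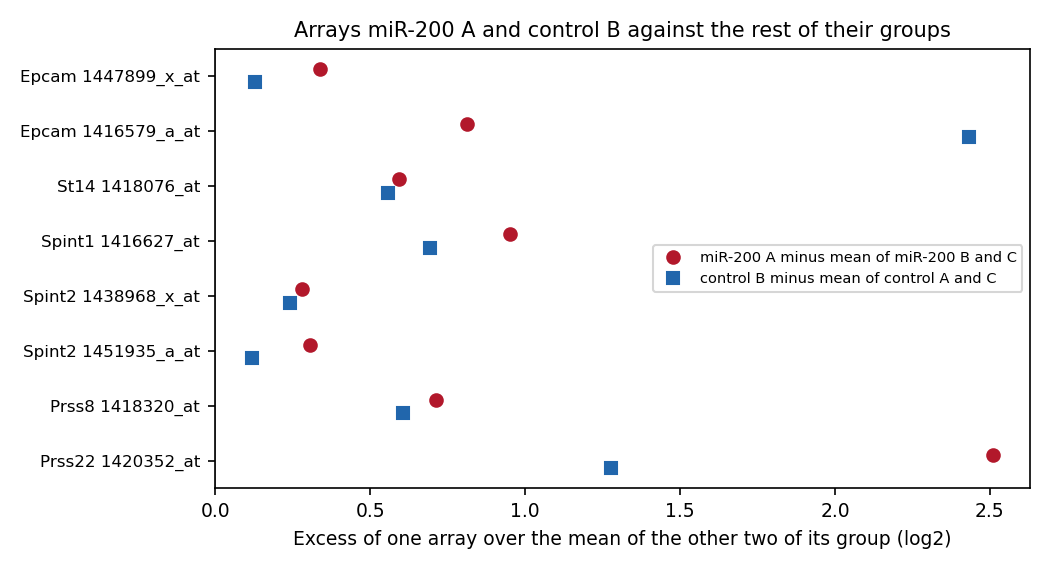
Excess on the log2 scale (x axis) of miR-200 A over the mean of miR-200 B and C (red circles) and of control B over the mean of control A and C (blue squares) for each member probe set (y axis). All points lie above 0, the largest being control B for 1416579_a_at of Epcam and miR-200 A for Prss22.

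Markers of epithelial cells were high on every array, since the summed signal of Cdh1, Krt8, Krt18 and Krt19 lay between 15.43 and 15.47 in the miR-200 cells and between 15.48 and 15.58 in the control cells (log2). The sum adds probe sets of different brightness and is only a description. Of the 4, the keratin Krt19 read 12.96, 12.98 and 13.03 in miR-200 A, B and C, against 13.53, 13.18 and 13.43 in control A, B and C. The Krt19 groups did not overlap, but the difference of -0.39 ± 0.14 did not pass the threshold (adjusted p = 0.315 in limma). The lung markers Sftpc and Scgb1a1 lay under the background gauge on all arrays, and Nkx2-1 between 6.55 and 7.36. Of the leukocyte markers 3 of 4 were measured, and their summed signal ranged from 7.16 to 9.20 in the miR-200 cells and from 7.40 to 9.13 in the control cells. Of these Cd68 moved with the arrays that stand apart, with 8.98, 5.73 and 5.97 in miR-200 A, B and C and 6.81, 8.87 and 6.46 in control A, B and C. The pan-leukocyte gene Ptprc read between 5.29 and 5.91, close to the background gauge on all arrays, so its small range says little about leukocytes. The part of such cells in the member values was not tested. Summed mast cell markers (4 of 4 measured) ranged from 8.29 to 8.60 in the miR-200 cells and from 8.18 to 8.35 in the control cells. Fibroblast markers (3 of 3) ranged from 6.62 to 6.80 in the miR-200 cells and from 6.46 to 6.92 in the control cells. Endothelial markers (3 of 3) ranged from 6.98 to 7.38 in the miR-200 cells and from 6.80 to 6.997 in the control cells. Only 2 of the mast cell, 1 of the fibroblast and 1 of the endothelial markers had a mean above the background gauge. These sums therefore rest in part on background.

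Around the 6 genes, a list of 53 partners, related proteases, other inhibitors and substrates was followed, of which 43 were measured by 72 probe sets. In this list 3 probe sets rose and 1 fell past the threshold, beside 0.258% and 0.486% of all probe sets. The median difference of the list was -0.09, against 0.03 for all probe sets, and 25 of the 72 had both group means under the background gauge. The list was written from general knowledge with earlier results of these data known, Cldn7 among them, so its counts are a description. Without control B and miR-200 A, 0 of the list passed in limma, with 7 higher and 14 lower at an unadjusted p under 0.05, against 4 higher and 14 lower on all arrays. Of all 45037 probe sets, 20.9% had an unadjusted limma p under 0.05 without these arrays (10.4% higher and 10.5% lower). With all arrays it was 14.1% (7.18% higher and 6.93% lower).

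Among 21 probe sets of partners and processing factors of Epcam, 1 rose. Cldn7, the claudin that Epcam binds and keeps at the membrane, read 10.53, 9.77 and 9.55 in miR-200 A, B and C, against 5.66, 5.26 and 6.21 in control A, B and C (probe set 1448393_at). The difference was 4.24 ± 0.36, with an adjusted p = 0.0162 in limma and no overlap of groups. Unlike Epcam, Cldn7 was not raised in control B, where it had its lowest value, just under the background gauge. Its control mean, 5.71, lies near the gauge, so the order of its control values is not read and the size of the difference is imprecise. Cldn7 kept its call without miR-200 A and lost it without each of the other arrays (adjusted p up to 0.112).

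Among 17 probe sets of type II transmembrane serine proteases, the family of matriptase, 1 rose and 1 fell. Tmprss2, an airway and gut protease known for activating viral envelope proteins, fell by probe set 1419154_at, with 7.60, 7.28 and 7.32 in miR-200 A, B and C, against 8.69, 8.67 and 8.55 in control A, B and C. Its difference was -1.23 ± 0.14 (adjusted p = 0.0405), 2.35-fold lower, opposite in direction to St14. Another 2 probe sets of Tmprss2 had differences of -1.08 and -0.80 with groups that did not overlap, without passing (adjusted p = 0.132 and 0.0718). The remaining one, 1459510_at, was listed at 0 on 5 of 6 arrays and gave no fold.

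Tmprss11e, a serine protease of surface epithelia, rose and lay under the background gauge in all control cultures, with 6.44, 5.96 and 5.70 in miR-200 A, B and C, against 3.61, 3.98 and 4.12 in control A, B and C. Its difference was 2.13 ± 0.25 (adjusted p = 0.0409), at least 1.69-fold when the gauge stands for the control level. Hpn (hepsin) and Tmprss4 lay under the gauge in both kinds of cell. The call of Tmprss2 was kept without miR-200 A and lost without each other array (adjusted p up to 0.183), and that of Tmprss11e was lost without any 1 array (adjusted p from 0.0583 to 0.182).

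Among 24 probe sets of substrates and their receptors, 1 rose. Cdcp1, a transmembrane protein that serine proteases including matriptase can cleave, read 9.35, 9.53 and 9.73 in miR-200 A, B and C, against 8.05, 7.77 and 8.19 in control A, B and C. The difference was 1.54 ± 0.18 (adjusted p = 0.0402), 2.91-fold, and the call was lost without any 1 array (adjusted p from 0.0599 to 0.183). In contrast to the member genes, Cdcp1 had the lowest value of each group on miR-200 A and control B.

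Other substrates did not pass. Plau, which encodes the urokinase that matriptase activates, had differences of 1.72 ± 0.71 and 0.30 ± 0.17 by its 2 probe sets (adjusted p = 0.364 and 0.483), with groups that did not overlap and with 10.24 in miR-200 A as the highest value. Hgfac, the HGF activator that Spint1 and Spint2 also inhibit, differed by -0.65 ± 0.19 (adjusted p = 0.225), Mst1r, the receptor for macrophage-stimulating protein, by -0.69 ± 0.23 (adjusted p = 0.285), and Scnn1a, the sodium channel subunit, by -0.43 ± 0.13 (adjusted p = 0.255). Each of these last genes was lower in all miR-200 cultures than in any control culture. Of Hgf the brightest probe set differed by -0.12 ± 0.17 (adjusted p = 0.793), and the other 2 lay under the gauge in both groups. No probe set passed among 6 of other inhibitors, with 1 at an unadjusted limma p under 0.05, and among 4 of membrane-anchored proteases related to prostasin, with 0. That 1 was Serpinb1a, an inhibitor of neutrophil serine proteases, named after its values were seen, with 4.62, 1.76 and 0.93 in miR-200 A, B and C, against 7.23, 8.65 and 6.54 in control A, B and C. Its signal in the miR-200 cells was under the gauge, at least 4.58-fold lower than in the control cells (adjusted p = 0.139), and its other probe set lay under the gauge in both groups. Serpine2 and F2rl1 were not analysed here.

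**Figure D4:**
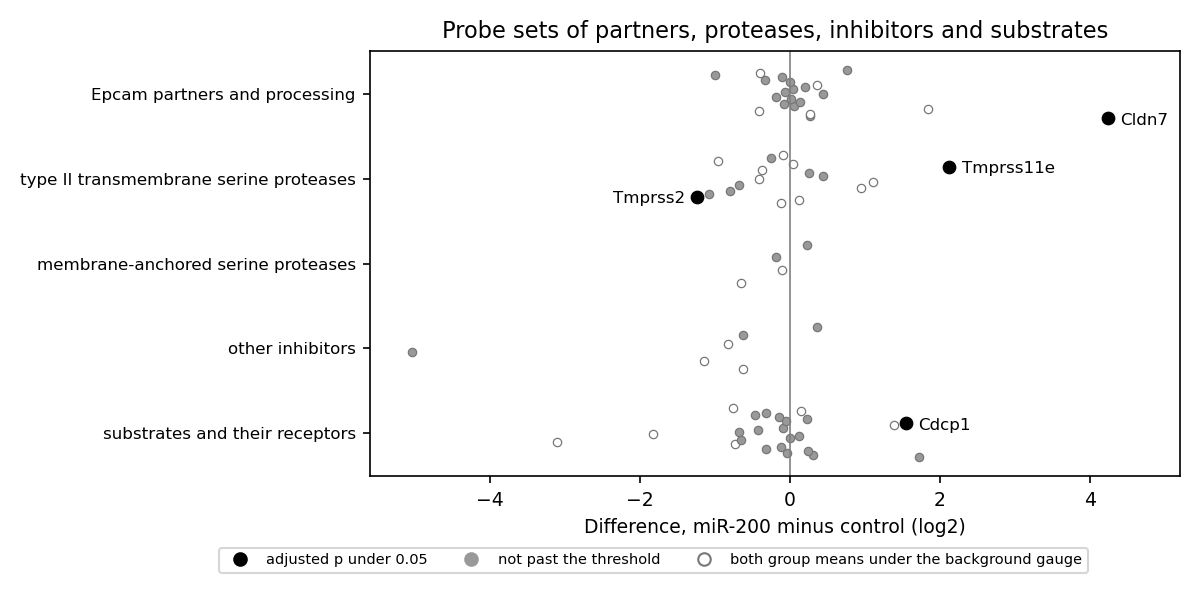
Difference between miR-200 and control cells on the log2 scale (x axis) for 72 probe sets of partners, proteases, inhibitors and substrates, in rows by role (y axis). Black points passed the threshold and carry their symbol, grey points did not, and open points had both group means under the background gauge. Cldn7 at 4.24 is the furthest right, Tmprss2 at -1.23 is the only black point left of 0, and the grey point furthest left is Serpinb1a.

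For the member probe sets with a difference of at least 1 and groups that did not overlap, the genes with the most similar profile over the 6 arrays were sought among 18192 other genes, by the root mean square difference of log2 values centred on each gene's mean. The nearest to 1416579_a_at of Epcam were Esrp1, an epithelial splicing factor (0.73), Cwh43 (0.76) and Macc1, a regulator of Met expression (0.94). All control values of these 3 genes lay under the background gauge, so their order among the controls is not read. Nearest to St14 were Fst, the activin-binding protein follistatin (0.11), Amotl1, an angiomotin of cell junctions (0.16), and Gm16835 (0.17). Fst read 8.82, 8.22 and 8.42 in miR-200 A, B and C, against 6.54, 7.07 and 6.54 in control A, B and C, with a difference of 1.77 ± 0.24 (adjusted p = 0.0524). Fst and Amotl1, like St14, had the highest value of each group on miR-200 A and control B. Genes were picked by likeness to St14 on these same arrays, so this shared order follows in part from the choice. All control values of Gm16835 lay under the background gauge, so their order is not read.

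**Figure D5:**
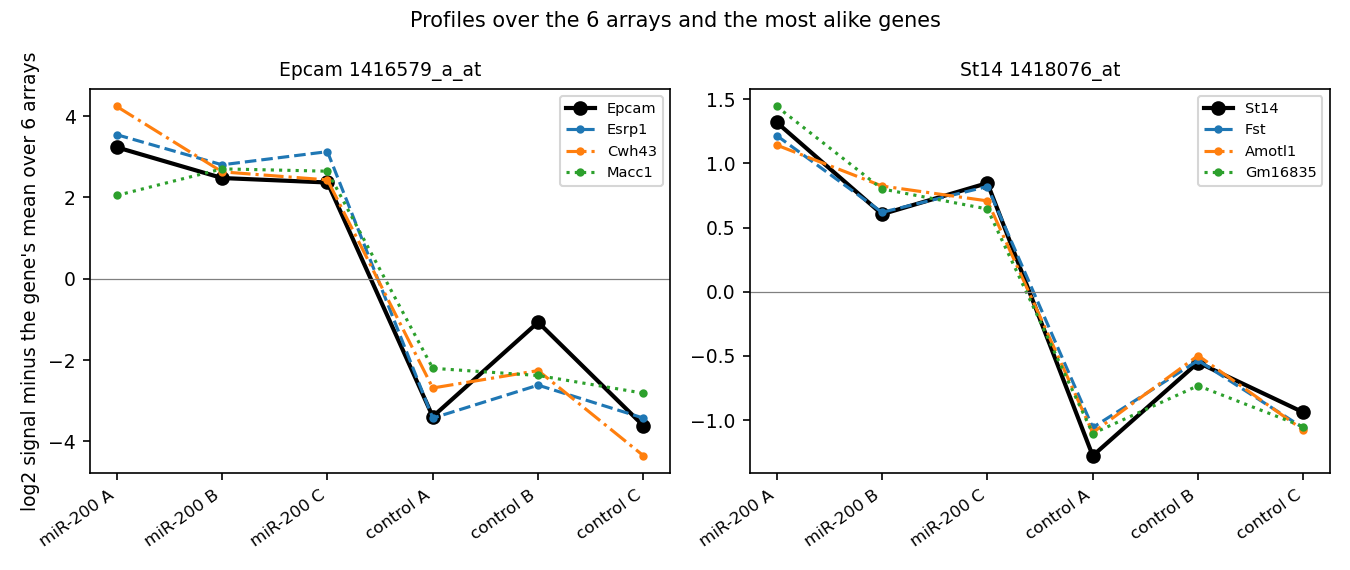
Log2 signal minus the gene's mean over the 6 arrays (y axis) on each array (x axis) for 1416579_a_at of Epcam (left) and St14 (right), in black, with the 3 most alike genes of each. Epcam is the highest line on control B in the left panel, and the lines of the right panel nearly coincide.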

How the data were processed

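Per the labels, cRNA carrying biotin was put on Affymetrix mouse expression arrays. The authors deposited 1 log2 signal per probe set and array (45101 probe sets). The labels name the 430A 2.0 design, whereas the probe annotation is that of a larger design of the family. Summarisation and normalization are not given in the sources used here. Deposited array medians spanned 0.092, under the limit of 0.1, and interquartile ranges 0.174, over it, so arrays were quantile normalized (limma 3.58.1, R 4.3.3). The fit leaves out 64 control probe sets. Symbols follow the RefSeq gene table of GRCm38.p6.

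The fit was limma's lmFit and eBayes, two-sided, without further terms. The members and lists were chosen with earlier results of these data known. All member probe sets are named, as are partners past the threshold and a fixed few. Alternatives were deposited values, median centring, no dimmest 40%, a robust variance trend, array weights, a replicate block by letter, leaving out each array in turn or both control B and miR-200 A, and averaging the probe sets of a gene. In simulated arrays of 45037 probe sets the fit found 75% of log2 changes of 2 and 94% of changes of 5. There the noise was drawn independently for each array, and changes were placed only in brighter probe sets. Deviations of the real arrays are correlated, so these shares need not hold for them.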

Additional observations from a re-analysis of the deposited data

How the results depend on the processing

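Of the 8 member probe sets, the directions of 6 held in all 13 alternatives. That of Prss8 turned without miR-200 A (-0.020) and without control A (-0.013), in a range from -0.020 to 0.42 without 1 array. That of 1438968_x_at of Spint2 turned without miR-200 C (0.038) and without control B (0.052), in a range from -0.12 to 0.052. All of these were far from the threshold. For 1416579_a_at of Epcam the difference was 5.38 without the dimmest 40% of probe sets and with the variance trend, 5.67 with array weights and 5.94 without control B and miR-200 A, each past the threshold, and it ranged from 4.91 to 6.19 without 1 array. St14 passed at 1.85 with the variance trend and without the dimmest 40%, and at 1.74 with array weights. The mean of both Epcam probe sets passed at 2.90 (adjusted p = 0.0414) in a separate limma fit on gene means, adjusted over 18193 genes. Member probe sets past the threshold numbered 2 higher in those 3 settings, 1 without control B and miR-200 A, and 0 to 1 without 1 array. Of the partner list, 3 probe sets were lower without the dimmest 40% and with the trend, and 6 with weights. With the replicate block and without both arrays, 0 were higher and 0 lower, and without 1 array 0 to 1 were higher and 0 to 1 lower. On the whole array, 340 were higher and 583 lower without the dimmest 40%, 328 and 623 with the trend, 478 and 813 with weights, and 19 and 87 without both arrays. Without 1 array higher calls ranged from 13 (without control A) to 84 (without miR-200 A) and lower calls from 19 to 246 (the same arrays). With the letter as a replicate block limma called 0 probe sets (4280 at an unadjusted p under 0.05), and adjusted p was 0.287 for Epcam and 0.353 for St14. The letters are not stated to mark a shared batch. Deviations of same-letter arrays correlated at -0.58, -0.67 and 0.43 over all but the dimmest 40% of probe sets. Hpn, under the background gauge in both groups, turned with weights (0.13) and without both arrays (0.28), and ranged from -0.81 to 0.97 without 1 array, with 0.020, 0.43 and 0.97 without miR-200 B, miR-200 C and control B. Fewer probe sets or arrays act in part by construction. Otherwise the cause was not tested.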
